A study of Mus musculus with 2 samples.

Results

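The miRNA genes of the Hox clusters were examined in mouse facial prominence tissue at embryonic day 13.5. The members are all annotated miRNA genes of the count tables that lie inside a Hox cluster, taken by position and name: Mir10a, Mir10b, Mir196a-1, Mir196a-2, Mir196b and Mir615, which are 6 of 1973 miRNA genes. The facial prominences are the swellings from which jaws, palate and nose form. RNA shorter than 30 bases was sequenced in 2 libraries, biological replicates 1 and 2 of a single group. Both come from B6NCrl embryos of both sexes, pooled and labelled healthy, so the data hold no contrast between conditions. The labels give the libraries separate biosamples but do not say how many embryos each holds, and p-values measure only the difference between these libraries.

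Hox genes give the body axis its regional identity. They stand in 4 clusters, in which genes of low paralog number at the 3′ end are active nearest the head and genes of high number at the 5′ end act in the trunk, tail and limbs. The neural crest that builds the face comes from levels in front of the Hox domain and is largely free of Hox expression. By contrast, the crest of more posterior pharyngeal arches, the caudal hindbrain and the trunk express Hox genes. The miRNA genes inside the clusters are often expressed in domains like those of their Hox neighbours and repress, among other targets, Hox mRNAs of more anterior position.

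The mature sequences show why some members can be counted and others only in part. They are written 5′ to 3′ as RefSeq gives them on GRCm38.p6, with the seed, bases 2 to 8, in capitals. All 6 members had an entry. The arms shown are the ones each family is known for, followed by the 3p arms of both Mir196a genes.
mmu-miR-10a-5p: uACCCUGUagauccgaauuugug
mmu-miR-10b-5p: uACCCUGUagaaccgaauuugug
mmu-miR-196a-5p: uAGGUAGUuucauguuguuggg
mmu-miR-196b-5p: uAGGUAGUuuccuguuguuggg
mmu-miR-615-3p: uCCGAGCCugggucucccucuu
mmu-miR-196a-1-3p: cAACGACAucaaaccaccugau
mmu-miR-196a-2-3p: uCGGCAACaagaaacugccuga

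These arms fall into 3 seed groups. Mir10a and Mir10b share the seed ACCCUGU and differ at 1 of 23 bases, U12A, counted from the 5′ end with miR-10a first. The Mir196 genes share AGGUAGU, and miR-196a differs from miR-196b at 1 of 22 bases, A12C. The third group is Mir615 alone. None of these seeds occurred in a mature miRNA of another gene among the 1738 mature entries of the RefSeq table.

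The tables hold reads placed at several loci in a class of their own, so genes carry only uniquely placed reads and identity of sequence matters for the counts. Every stretch of at least 18 bases within miR-10a, miR-10b, miR-196b and miR-615 occurred in 1 of 2238 annotated hairpins. miR-196a-5p occurred whole in the hairpins of both Mir196a-1 and Mir196a-2, and 0 of its 15 stretches belonged to 1 hairpin. Reads of that arm could not be credited to either gene, and the counts of Mir196a-1 and Mir196a-2 can come only from their 3p arms and from longer or shifted reads. The rest of the genome was not searched. The hairpins themselves make the point, with the shared arm in capitals. Mir196a-1 is the stretch chr11:96265164-96265265 and Mir196a-2 is chr15:102973350-102973434, both on the plus strand of GRCm38.
Mir196a-1: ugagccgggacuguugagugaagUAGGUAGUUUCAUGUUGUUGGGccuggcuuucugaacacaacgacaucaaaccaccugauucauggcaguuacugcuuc
Mir196a-2: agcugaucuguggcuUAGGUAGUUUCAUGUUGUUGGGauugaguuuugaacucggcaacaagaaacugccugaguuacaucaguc

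A well-known target of this family is Hoxb8. The best ungapped pairing of miR-196a-5p with the annotated 3′ UTR of Hoxb8 lay at bases 418 to 439 of its 845 bases. All 22 bases of the miRNA were paired there, 21 by Watson-Crick pairs and 1 by a G:U pair at base 5 of the miRNA. The next best position paired 16 bases. The site reads as follows, as DNA of the transcript strand, with the 7 bases opposite the seed in capitals.
Hoxb8 site: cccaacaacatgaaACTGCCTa

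Each member sits between Hox genes of given paralog numbers, by which it is ordered here along its cluster. Where along the body axis each member is expressed was not measured. Positions are those of GENCODE M21 on GRCm38, and distances run to the last coding exon of the neighbour. Mir10a, on the plus strand at chr11:96317165-96317274, lies between Hoxb5 on its 5′ side and Hoxb4, 2756 bases downstream, in no transcript of another gene. Mir10b, on the plus strand at chr2:74726070-74726137, lies between Hoxd8 and Hoxd4, 2125 bases downstream, in introns of long Hoxd3 and Hoxd4 transcripts. Mir615, on the plus strand at chr15:103014910-103015001, is in an intron of Hoxc5, 227 bases before its last coding exon, with Hoxc6 on the 5′ side. These 3 genes belong to the anterior and middle part of the clusters. They are called anterior below only relative to the Mir196 genes, and none has a neighbour of paralog number under 4.

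The Mir196 genes all stand just 5′ of a paralog 9 gene. Mir196a-2 lies in an intron of a long Hoxc5 transcript, with Hoxc10 2278 bases upstream and Hoxc9 10461 bases downstream. Mir196b, on the minus strand at chr6:52230081-52230165, lies in an exon of Hoxa9 transcripts, with Hoxa10 2344 bases upstream. Mir196a-1 lies in the wide gap between Hoxb13, 68938 bases upstream, and Hoxb9, 9359 bases downstream, in no transcript of another gene. A further gene annotated as miRNA in the HoxD cluster, Gm44463, was not analysed here.

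**Figure D1:**
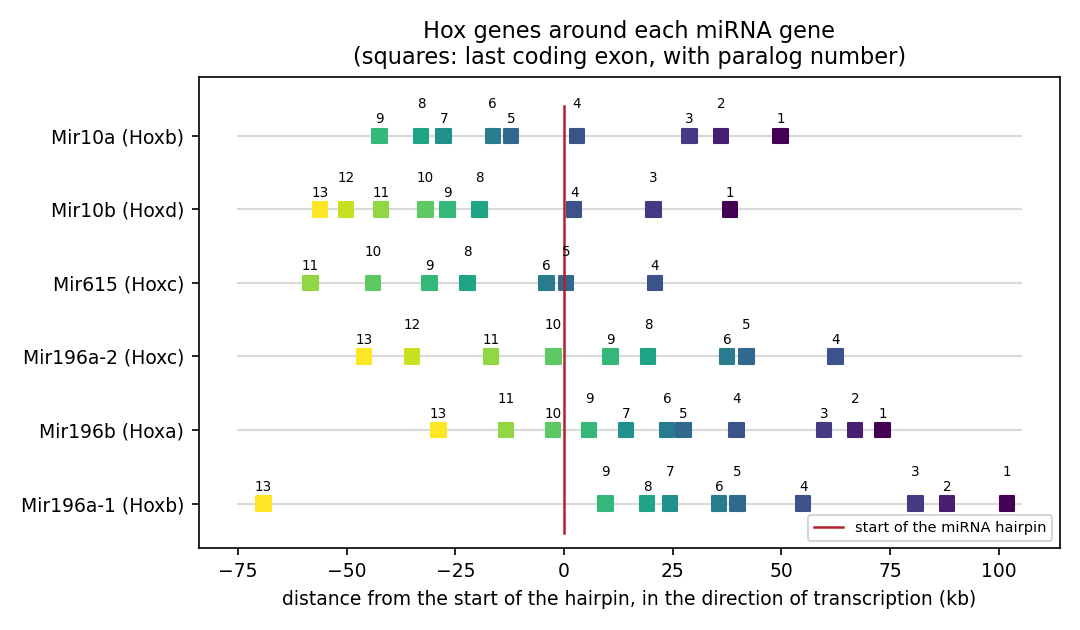
Distance in kb from the start of each miRNA hairpin, in the direction of transcription, to the last coding exon of the Hox genes of its cluster (squares, labelled and coloured by paralog number); Hoxb13 and Hoxc13 and Hoxc12 fall outside the range for Mir10a and Mir615. Mir10a, Mir10b and Mir615 have a paralog 4 or 5 gene as their 3′ neighbour, and the 3 Mir196 genes a paralog 9 gene.

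The tables held 4562135 same-strand counts on miRNA genes in replicate 1 and 5771249 in replicate 2. Levels are CPM, counts per 1000000 of these totals, and a share is a percent of them. Markers of mesenchyme, cartilage and epithelium were present, which does not by itself mark the tissue as facial. All 8 mesenchyme and cartilage genes and all 7 epithelium genes of the lists had counts in both libraries. Their summed levels were 66010 and 70945 CPM and 63539 and 63309 CPM in replicates 1 and 2. The mesenchyme and cartilage sum includes Mir143 (16319 and 19231 CPM) and Mir145a (245 and 272 CPM), which are also genes of vessels. Opposite-strand counts at the members were 2 in replicate 1 and 1 in replicate 2, all at Mir10a. The 95% Wilson intervals given below cover counting error only, each from the reads of 1 library. PCR copies are not independent molecules, so these intervals can be too narrow even for that error.

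The 6 genes together made up a small share of the miRNA counts, and the genes next to Hox paralogs 4 to 8 held nearly all of it. The sum was 0.466% of counts in replicate 1 and 0.245% in replicate 2 (0.355 ± 0.156%, SD, n = 2). Mir10a, Mir10b and Mir615 together stood at 4598 CPM in replicate 1 against 2397 CPM in replicate 2. The 3 Mir196 genes together stood at 57.0 and 54.6 CPM, so the anterior set was 80.7 times as high in replicate 1 and 43.9 times in replicate 2. The posterior sum leaves out miR-196a-5p. Mir196b, whose 5p arm was found in 1 hairpin, gives a comparison without that gap. In bulk tissue, fewer cells of a type and less RNA per cell cannot be told apart.

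Mir10b, the HoxD member of the miR-10 pair, was the highest. Its level was 2722 CPM in replicate 1 (95% Wilson interval 2674 to 2770) and 1931 CPM in replicate 2 (1896 to 1967), a mean of 2326 ± 559 CPM (SD, n = 2). It ranked 65 among the 683 genes with a count in either library. Mir10b made up 58.5% of the Hox cluster miRNA counts in replicate 1 and 78.8% in replicate 2. It was the leading gene of the group in both libraries.

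Mir10a, the HoxB member, came next and was far less steady. It stood at 1737 CPM in replicate 1 (1699 to 1776) and 404 CPM in replicate 2 (388 to 421), a mean of 1070 ± 942 CPM (SD, n = 2), and ranked 80 in replicate 1 and 123 in replicate 2. Its share of the Hox cluster miRNA counts was 37.3% in replicate 1 and 16.5% in replicate 2. Mir10b exceeded Mir10a by 1.57-fold in replicate 1 and by 4.78-fold in replicate 2. Mir10b was thus above Mir10a in both libraries, but its lower value lay above the higher Mir10a value by less than the SD of either gene.

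Mir615, known as the miRNA of the Hoxc5 intron, stood far below the miR-10 pair. Its level was 139.6 CPM in replicate 1 (129 to 151) and 61.2 CPM in replicate 2 (55.1 to 67.9), a mean of 100.4 ± 55.5 CPM (SD, n = 2). Mir10a was 12.4 times as high in replicate 1 and 6.61 times in replicate 2. The median level of the 360 genes with at least 10 counts in both libraries was 113 CPM, so Mir615 lay near the middle of the genes that could be tested.

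Of the posterior genes, Mir196b was the highest by unique reads and hardly differed between the libraries. It had 215 counts or 47.1 CPM in replicate 1 (41.2 to 53.9) and 276 counts or 47.8 CPM in replicate 2 (42.5 to 53.8), a mean of 47.5 ± 0.492 CPM (SD, n = 2). Mir10b was 57.7 times as high in replicate 1 and 40.4 times in replicate 2, and Mir10a 36.9 and 8.45 times. Mir615 exceeded it by 2.96-fold and 1.28-fold, and the means of these neighbours in the order differed by less than the SD of Mir615.

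Mir196a-2 had 37 counts in replicate 1 and 38 in replicate 2. That is 8.11 CPM (5.88 to 11.2) and 6.58 CPM (4.80 to 9.04), a mean of 7.35 ± 1.08 CPM (SD, n = 2). Mir196a-1, in the gap next to Hoxb13, had 8 counts in replicate 1 and 1 count in replicate 2, or 1.75 CPM (0.889 to 3.46) and 0.173 CPM (0.0306 to 0.982). The value of replicate 2 lies under the 3 counts that a count of 0 allows (0.520 CPM). The order of the 6 genes was the same in both libraries: Mir10b, Mir10a, Mir615, Mir196b, Mir196a-2, Mir196a-1. The last 2 levels are those of reads outside miR-196a-5p and do not give the amount of that miRNA.

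**Figure D2:**
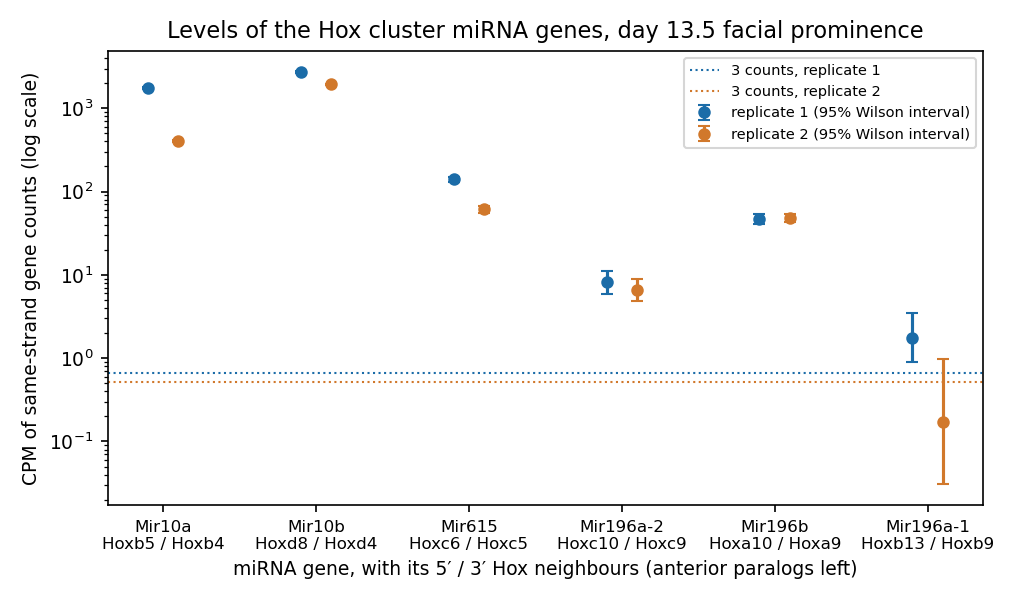
Level of each gene (CPM of same-strand gene counts, log scale) in replicate 1 (blue) and replicate 2 (orange), with 95% Wilson intervals, ordered from anterior to posterior Hox neighbours; dotted lines mark 3 counts in each library. Mir10b and Mir10a lie between 404 and 2722 CPM, Mir615 and Mir196b between 47.1 and 139.6 CPM, and both Mir196a genes under 9 CPM.

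By cluster, the HoxD gene Mir10b alone gave 2326 ± 559 CPM (SD, n = 2). The HoxB genes gave 1071 ± 944 CPM, nearly all from Mir10a. The HoxC genes gave 108 ± 56.6 CPM, mostly from Mir615, and the HoxA gene Mir196b 47.5 ± 0.492 CPM. HoxB and HoxC each hold an anterior and a posterior member, 52.0 kb and 41.6 kb apart. Within HoxB, Mir10a exceeded Mir196a-1 by 990.5-fold in replicate 1, and within HoxC, Mir615 exceeded Mir196a-2 by 17.2-fold in replicate 1 and 9.29-fold in replicate 2. With 1 count of Mir196a-1 in replicate 2, no ratio is given there. Both comparisons set a gene with a unique mature sequence against one whose main arm was not counted.

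The libraries differed in the anterior members. Mir10a was 4.30 times as high in replicate 1 as in replicate 2 after TMM scaling (95% exact interval 4.11 to 4.51), Mir615 2.28 times (2.00 to 2.61) and Mir10b 1.41 times (1.37 to 1.45). Mir196a-2, at 1.23 times (0.762 to 1.99), and Mir196b, at 0.986 times (0.821 to 1.18), had intervals that include equal levels. In the exact binomial test with Benjamini-Hochberg adjustment over all 360 tested genes, 3 of the 5 tested members passed, all 3 higher in replicate 1. The adjusted p was 2.06e-36 for Mir615, 1.91e-151 for Mir10b, 0.502 for Mir196a-2 and 0.946 for Mir196b, and for Mir10a it was smaller still. Of all tested genes 55% passed, 27.2% as higher in replicate 1 and 27.8% as higher in replicate 2, so a pass alone says little about the members. The median log2 ratio of replicate 2 to replicate 1 was -0.50 over the 5 members, and near 0 (-0.0082) over all tested genes.

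Counting error is only part of the difference between libraries. The common dispersion of edgeR, estimated from both libraries as 1 group, amounted to a coefficient of variation of 17.99% over all tested genes. In an exact test with that dispersion, Mir10a passed (adjusted p = 1.63e-05), while Mir615 (adjusted p = 0.165) and Mir10b (adjusted p = 1) did not. This test called 2 of 360 genes (0.556%), both higher in replicate 1 (0.556%), and 22 genes had an unadjusted p under 0.05. The other gene called was Mir219a-2, at 32.4 CPM in replicate 1 against 8.84 CPM in replicate 2 (adjusted p = 0.00459). Mir219a-1, the other gene of that miRNA, stood at 30.7 and 42.6 CPM and was not called by this test (adjusted p = 1). The mature sequences of the Mir219a genes were not compared, so their unique counts need not give the level of that miRNA. The difference of Mir10a was thus larger than the usual spread between these libraries, and those of Mir615 and Mir10b were not called beyond it.

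By size, Mir10a had the largest log2 ratio of all 360 tested genes, at -2.10. Mir615 ranked 8 at -1.19, and Mir10b ranked 75 at -0.50. The median gene differed by 1.18-fold. Among the 267 tested genes whose mean count reached 100, the next after Mir10a were Mir144 (log2 ratio 1.36), Mir615, Mir6236 (-1.17) and Mir122 (1.14). Mir144, of red blood cells, and Mir122, of liver, were higher in replicate 2 and so went the other way. Neither passed the test with the common dispersion (adjusted p = 0.0941 and 0.176), and other genes of their lists did not all follow.

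**Figure D3:**
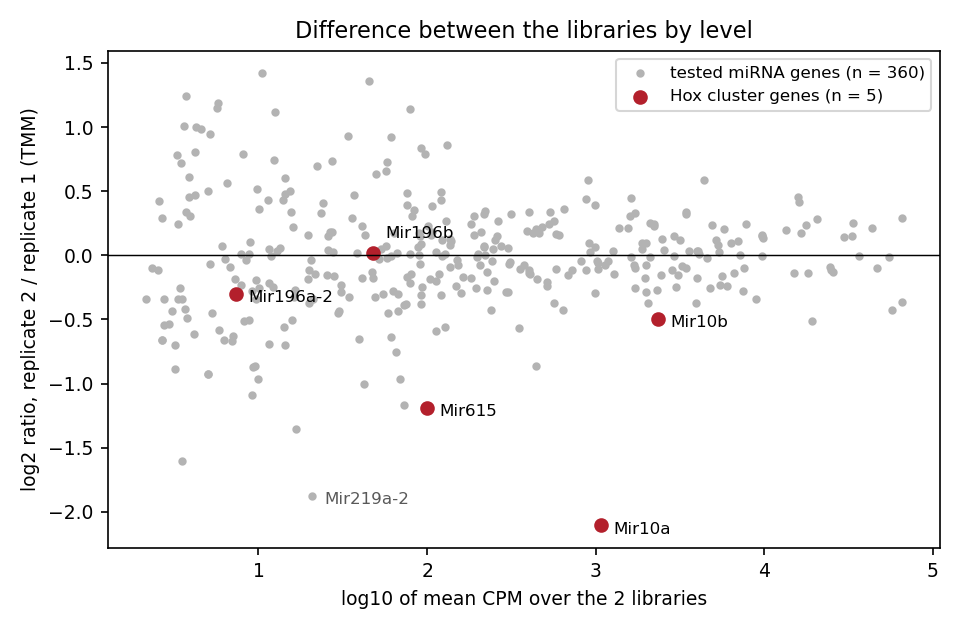
Log2 ratio of replicate 2 to replicate 1 after TMM scaling against log10 of the mean CPM, for 360 tested genes (grey) and the 5 tested Hox cluster genes (red). Mir10a stands lowest at -2.10, apart from genes of like level, while Mir196b lies at 0.02.

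By counting error alone, the members did not shift alike. The fold of one member relative to another was compared by the conditional odds ratio of their 4 counts, a comparison chosen after the values were seen. The fold of Mir10a was 3.05 times that of Mir10b (95% exact interval 2.89 to 3.22), although both carry the same seed. It was 1.88 times that of Mir615 (1.64 to 2.17) and 4.36 times that of Mir196b (3.61 to 5.27). Mir615 exceeded its HoxC neighbour Mir196a-2 by 1.85 times in fold (1.12 to 3.06) and Mir196b by 2.32 times (1.85 to 2.91). For Mir10b against Mir196a-2 the interval included 1 (0.708 to 1.85). Of all 15 pairs, 9 had an interval without 1, with counting error as the only error counted. The share over pairs of other genes was not computed. Counting error alone called 55% of single tested genes, so this count of pairs says little about the members.

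Mir196a-1 had too few counts for the main test. When genes with at least 1 count in both libraries were admitted, it passed the binomial test (log2 ratio -3.32, adjusted p = 0.0379) but not the test with the common dispersion (adjusted p = 0.671). At that minimum, 202 of 552 genes passed the binomial test, so a pass alone says little. The 8 counts and 1 count of Mir196a-1 gave a ratio of replicate 1 to replicate 2 of 10.1, with an exact interval of 1.36 to 449. Both HoxB genes thus had more counts in replicate 1, but those of Mir196a-1 are few and leave out miR-196a-5p.

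In sum of counts, the most abundant members account for most of the difference. The 6 genes together summed to 4655 CPM in replicate 1 against 2451 CPM in replicate 2. Mir10a made up 60.5% of that difference, Mir10b 35.9% and Mir615 3.56%. The 3 Mir196 genes, without miR-196a-5p, stood at only 57.0 and 54.6 CPM and could add little to it. The split thus follows level and does not bear on axial position. The miR-10 seed as a whole, Mir10a plus Mir10b, stood at 4458 CPM in replicate 1 against 2335 CPM in replicate 2, or 1.91 times as high.

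Neural tissue of the caudal hindbrain, blood, muscle and other tissues could enter a dissection of the face, and their marker miRNAs are given here for the whole lists. The neural list was nearly level, with 1060 CPM in replicate 1 and 1021 CPM in replicate 2. Of its 14 tested genes, 8 did not pass the binomial test. In replicate 1, 3 were higher, beside 27.2% of all tested genes, and in replicate 2, 3 were higher, beside 27.8%. Of the defining neural genes, Mir124a-1, Mir124a-3 and Mir9-2 had 0 counts in both libraries, and Mir124a-2 had 1 count in each. Mir9-3 had 39 counts in replicate 1 and 31 in replicate 2. The miR-124 and miR-9 genes repeat their mature sequences at several loci, so these counts set no limit. Whether the Mir219a, Mir128, Mir218 and Mir138 genes share mature sequences was not examined, so their counts may leave out reads too. The neural genes higher in replicate 1 by the binomial test were Mir219a-2, Mir128-2 (56.6 and 28.2 CPM) and Mir128-1 (136 and 90.1 CPM). Those higher in replicate 2 were Mir219a-1 (30.7 and 42.6 CPM), Mir218-1 (9.21 and 15.4 CPM) and Mir138-2 (117 and 141 CPM), while Mir137, the highest of the list, stood at 315 and 304 CPM. The part of neural tissue in the Mir10a result was not tested.

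The striated muscle list summed to 632 CPM in replicate 1 and 404 CPM in replicate 2. Most of that came from Mir206 of skeletal muscle (570 and 314 CPM). By the binomial test, 3 of the 5 tested muscle genes were higher in replicate 2, beside 27.8% of all tested genes. In replicate 1, 1 was higher, beside 27.2%. None of the 5 passed the test with the common dispersion. Mir1a-1, Mir133a-1 and Mir133a-2 had 0 counts, again with repeated mature sequences. The erythroid list summed to 101 and 160 CPM and the liver list to 191 and 263 CPM, higher in replicate 2. By the binomial test, 2 of 3 tested erythroid genes were higher in replicate 2, beside 27.8% of all tested genes. Of 3 tested liver genes, 1 was higher there, Mir122 (49.5 and 109 CPM). The other tested genes of both lists did not pass. Mir486 (10.3 and 9.01 CPM) and Mir194-1 (1.53 and 0.347 CPM) had lower levels in replicate 2. No tested gene of either list passed the test with the common dispersion. White blood cell genes stood at 569 and 562 CPM, the endothelial Mir126a at 25810 and 23871 CPM, and the sensory epithelium list at 21458 and 24198 CPM. By the binomial test, replicate 2 was higher for 6 of the 8 mesenchyme and cartilage genes and for 5 of the 7 epithelium genes, beside 27.8% of all tested genes. None of these 15 genes passed the test with the common dispersion (adjusted p = 1 for each). The leading genes of these lists, with levels in replicates 1 and 2, were Mir132 after Mir137 among neural genes (131 and 143 CPM) and Mir208b after Mir206 in muscle (39.0 and 60.6 CPM). In blood they were Mir451a (65.8 and 86.3 CPM) with Mir144, and Mir223 (383 and 363 CPM) with Mir155 (103 and 139 CPM). In liver Mir192 (84.4 and 95.5 CPM) led with Mir122. The mesenchyme and cartilage list was led by Mir214 (26825 and 24589 CPM) and Mir140 (18603 and 22710 CPM). The epithelium list was led by Mir203 (22575 and 15805 CPM) and Mir429 (13418 and 18412 CPM). Mir183 (9326 and 10225 CPM) and Mir182 (9106 and 10179 CPM) led the sensory epithelium list. The part of muscle in the shift of the Hox cluster genes was not tested.

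**Figure D4:**
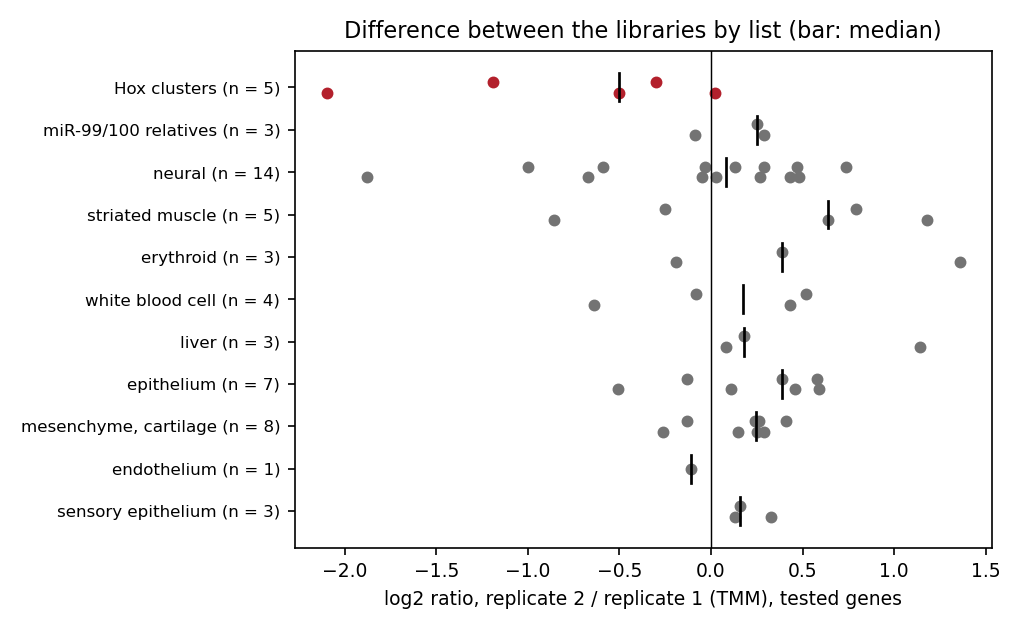
Log2 ratio of replicate 2 to replicate 1 after TMM scaling for each tested gene (points) of the Hox clusters, the miR-99/100 relatives and 9 marker lists, with the median of each list (bar). The Hox cluster genes reach from -2.10 to 0.02 with a median of -0.50, and the neural list has a median of 0.08.

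The closest relatives of miR-10 outside the clusters are miR-99 and miR-100, which derive from the same ancestral family. Their leading arms are shown here for comparison with miR-10a and miR-10b above, since they carry another seed.
mmu-miR-99a-5p: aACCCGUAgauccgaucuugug
mmu-miR-99b-5p: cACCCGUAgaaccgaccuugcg
mmu-miR-100-5p: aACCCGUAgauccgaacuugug

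The relatives were far more abundant than the Hox cluster pair. Mir99a stood at 58924 CPM in replicate 1 against 72163 CPM in replicate 2, which was 21.7 and 37.4 times the level of Mir10b. Mir100 was 11.3 and 19.0 times as high as Mir10b, and Mir99b 9.27 and 12.2 times. Between the libraries Mir99a (log2 ratio 0.29) and Mir100 (0.25) were higher in replicate 2 by the binomial test and Mir99b (-0.09) in replicate 1, and none of them passed the test with the common dispersion (adjusted p = 1 for each). Mir10a and Mir10b went the other way from Mir99a and Mir100.

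Genes whose values in the 2 libraries were most like those of a member were sought by the Euclidean distance of log2 CPM over both libraries. Mir10b was nearest to Mir467d (distance 0.16) and Mir22 (0.27). Mir196b was nearest to Mir877 (0.10) and Mir346 (0.14), and Mir196a-2 to Mir193a (0.09) and Mir293 (0.16). Mir615 had its nearest genes at 0.56, Mir128-1, and 0.57, Mir673. Mir10a had none close: Mir501 and Mir483 were the nearest, at a distance of 1.32 each.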

How the data were processed

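Small RNA of 2 libraries was analysed. The deposited values are whole-number read counts per miRNA gene, made by the authors on mm10 with GENCODE M4, per the deposited description files. Which aligner and trimming were used is not given in the sources used here. Each file has 3 columns of counts without a header, read from their totals as unstranded, same strand and opposite strand, of which the same-strand column was used. Rows naming no gene stayed out: in replicates 1 and 2, 30.71% and 31.01% of reads were multi-placed, 20.6% and 20.87% unmapped, and 4.62% and 4.01% fell outside genes.

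GENCODE M21 (GRCm38) named 1894 of 1973 identifiers, all members included; gene extents may differ from M4. Seed sites over all Hox 3′ UTRs are not reported here. Genes with at least 10 counts in both libraries were scaled by TMM (edgeR 4.0.16, R 4.3.3) and tested by a two-sided exact binomial test with Benjamini-Hochberg adjustment at 0.05, and by edgeR's exact test with the common dispersion. Both were run on simulated data in which all genes of a run shared the same dispersion. Those runs do not cover a gene whose dispersion exceeds the common one. The quasi-likelihood test has no residual degrees of freedom here. Log2 CPM used a pseudocount of 0.5 reads. Other settings tried were unstranded counts, size factors of DESeq2 1.42.0, scaling by totals, count minimums of 1 and 100, and for levels TMM-scaled CPM, a total without its most abundant gene, and either library alone. The members and lists were chosen with earlier results of these data known.

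Genes named were the members, other counted miRNA genes of the clusters, Mir99a, Mir99b and Mir100, the 3 highest genes sharing a member's seed (none was found), the 2 genes nearest each tested member, up to 2 leading genes of each marker list, and the 5 largest log2 ratios at a mean count of 100 or more. Other genes of the marker lists, such as Mir219a-2, were named after their values were seen.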

Additional observations from a re-analysis of the deposited data

Results flagged for a closer look

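Reads placed at several loci lie outside the counts used and exceed the 3 counts that a count of 0 allows. They number 3179149 in replicate 1 and 4058237 in replicate 2 and are assigned to no gene in the tables. miR-196a-5p occurs in the hairpins of both Mir196a-1 and Mir196a-2, and the number of its reads is not known from the tables.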

How the results depend on the processing

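No paired analysis was possible because both libraries belong to 1 group. Of 57 alternative values for the 6 levels, the 5 ratios and the 2 counts of members called, 52 kept their direction and call or moved within the spread, and 0 reversed. The 12 levels from either library alone are not counted here, since with 2 libraries each lies within 1 SD of the mean by construction. The level of Mir196b, with its small SD, moved to 46.2 CPM with unstranded counts and to 50.8 CPM without the most abundant gene in the total. With the common dispersion in place of counting error, Mir10b (log2 ratio -0.50, adjusted p = 1) and Mir615 (-1.19, adjusted p = 0.165) lost their calls, and the count of members called went from 3 to 1. Over all genes that choice lowered the count of calls from 198 to 2. With a minimum of 1 count in both libraries, Mir196a-1 was admitted and the binomial count of members called went from 3 to 4. That value is counted among the 52, and the other members kept their calls. Mir10a passed both tests under every scaling and count minimum tried. With 2 libraries, no ratio between them could be recomputed without 1 of them. Mir196a-1 (8 counts and 1 count) and Mir196a-2 (37 and 38 counts) have the widest counting intervals, and depth and the missing reads of miR-196a-5p cannot be told apart there.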
